A study of Mus musculus with 6 samples.

Results

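The genes described here are 44 mouse genes of the cell cycle engine and of the regulators that sit directly on it, namely the cyclins, the cyclin-dependent kinases (CDKs), the CDK inhibitors, the CDC25 phosphatases and WEE1, the pocket proteins, the E2F factors, p53 with its MDM regulators, and MYC. They were chosen by name and role, with earlier results of these data known, and each of them was found among the 18169 genes of the deposited table. RNA was sequenced from Hepa 1-6 cells, an established line grown from a mouse hepatoma, after treatment with vehicle (3 libraries) or with Shh, the Sonic hedgehog protein (3 libraries). The line is the only background the labels give for both groups, and the dose and duration of Shh for the sequenced cells are not named in the sources used here. Separate cultures are not stated for the libraries of a group, so each p-value rests on a spread between libraries that may be technical. All libraries come from 1 transformed line.

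Progress through the cell cycle is driven by CDKs, which are active only when bound to a cyclin. D-type cyclins with CDK4 or CDK6, and then cyclin E with CDK2, phosphorylate the pocket proteins (RB and its relatives p107 and p130) and so release E2F factors, which switch on genes for DNA replication and for the next cyclins. Inhibitors of the INK4 and CIP/KIP families hold the kinases back, and p53 adds a brake through p21, the product of *Cdkn1a*, while MDM2 keeps p53 low. In several developing tissues Sonic hedgehog is known to raise D-type cyclins and *Mycn* through the GLI factors, which is why these genes are followed library by library below.

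Some promoters of this network carry short motifs, of which the E2F motif and the E-box are read by its own factors. Reference windows of the 250 bases before the transcript start were taken from RefSeq (GRCm38.p6), where 32 of the 44 genes had at least 1 window and 39 windows in all. *Ccnd1* and *Ccna2* had none. The windows were searched on both strands for the E2F motif TTNGCGC (9 of 32 genes, or 28.1%, against 10.6% of the 9831 tested genes with a window), the cell cycle homology region TTTGAA, known as CHR (9 genes, 28.1%, against 13.4%), the CCAAT box, spelled CCAAT (17 genes, 53.1%, against 41.4%) and the E-box CACGTG that MYC and its partner MAX bind (4 genes, 12.5%, against 9.79%). Over all 27025 genes with a window, expressed or not, the shares were 5.96%, 18.3%, 37.5% and 6.86%. A match is a description of the letters and not a bound site. The E2F motif overlapped itself on the opposite strand in *Cdc25a* and *Mycn*, and overlapped the CCAAT box in *Ccnb1* and *E2f8*.

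Shown are the windows of *Cdk4* and *Cdk1*, which hold the most motifs among the kinases, and of the other genes in which the Shh and vehicle libraries did not overlap, as described further on. Each runs 5′ to 3′ on the strand of the gene and ends at the base before the transcript start, with motif matches in capitals. *Cdk4* (chr10:127063285-127063534, plus strand) has 1 E2F motif and 4 E-boxes. *Cdk1* (chr10:69352913-69353162, minus strand) has 2 E2F motifs, 3 CCAAT boxes and 2 CHR matches. *Rbl1* (chr2:157204535-157204784, minus strand) has 1 E2F motif close to the start. *E2f7* (chr10:110745189-110745438, plus strand) has 1 E2F motif and 2 CCAAT boxes. *E2f8* (chr7:48881597-48881846, minus strand) has 1 E2F motif that overlaps its CCAAT box, and 1 CHR match. *Cdkn2a* has 2 windows, at chr4:89294620-89294869 with no match and at chr4:89282193-89282442 with 1 E2F motif, both on the minus strand. *Ccng2* (chr5:93267323-93267572, plus strand) holds none of these letters.
Cdk4: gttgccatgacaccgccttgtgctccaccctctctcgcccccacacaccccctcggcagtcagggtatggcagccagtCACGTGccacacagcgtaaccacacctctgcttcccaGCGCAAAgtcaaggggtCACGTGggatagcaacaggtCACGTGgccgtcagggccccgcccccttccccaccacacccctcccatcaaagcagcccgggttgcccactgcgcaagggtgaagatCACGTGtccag
Cdk1: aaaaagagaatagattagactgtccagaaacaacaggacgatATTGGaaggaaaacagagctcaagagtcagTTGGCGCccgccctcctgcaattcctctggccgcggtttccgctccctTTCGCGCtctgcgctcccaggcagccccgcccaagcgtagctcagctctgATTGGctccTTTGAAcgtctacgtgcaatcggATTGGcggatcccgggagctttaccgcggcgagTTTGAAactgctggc
Rbl1: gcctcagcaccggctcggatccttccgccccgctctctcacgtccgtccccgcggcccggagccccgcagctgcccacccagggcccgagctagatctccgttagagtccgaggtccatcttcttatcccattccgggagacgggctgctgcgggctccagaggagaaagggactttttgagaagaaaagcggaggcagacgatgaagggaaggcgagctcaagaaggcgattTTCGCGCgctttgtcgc
E2f7: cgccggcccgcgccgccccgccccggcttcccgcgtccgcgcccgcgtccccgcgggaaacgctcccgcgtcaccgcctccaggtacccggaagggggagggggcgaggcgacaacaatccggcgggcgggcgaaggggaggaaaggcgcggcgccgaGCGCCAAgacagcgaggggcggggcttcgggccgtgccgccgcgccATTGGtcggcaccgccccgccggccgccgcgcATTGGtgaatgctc
E2f8: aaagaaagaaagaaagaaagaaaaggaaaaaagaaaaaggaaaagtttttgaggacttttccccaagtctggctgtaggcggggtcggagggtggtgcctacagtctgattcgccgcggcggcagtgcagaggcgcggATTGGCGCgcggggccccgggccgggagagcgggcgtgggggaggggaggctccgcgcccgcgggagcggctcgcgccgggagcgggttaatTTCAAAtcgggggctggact
Cdkn2a, first window: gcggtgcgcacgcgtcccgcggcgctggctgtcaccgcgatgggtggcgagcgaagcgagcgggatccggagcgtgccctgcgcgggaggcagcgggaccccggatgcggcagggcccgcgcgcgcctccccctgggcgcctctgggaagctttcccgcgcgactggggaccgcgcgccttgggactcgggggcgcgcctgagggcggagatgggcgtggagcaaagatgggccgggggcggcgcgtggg
Cdkn2a, second window: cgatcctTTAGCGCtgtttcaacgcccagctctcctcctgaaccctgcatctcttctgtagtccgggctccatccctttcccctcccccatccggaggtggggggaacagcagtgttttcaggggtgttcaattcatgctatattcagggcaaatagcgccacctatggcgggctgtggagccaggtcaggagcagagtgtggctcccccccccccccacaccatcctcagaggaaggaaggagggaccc
Ccng2: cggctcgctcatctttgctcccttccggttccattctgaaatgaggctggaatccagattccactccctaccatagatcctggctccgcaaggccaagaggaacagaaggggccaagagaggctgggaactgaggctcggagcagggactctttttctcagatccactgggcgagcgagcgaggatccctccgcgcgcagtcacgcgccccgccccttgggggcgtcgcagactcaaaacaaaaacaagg

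**Figure D1:**
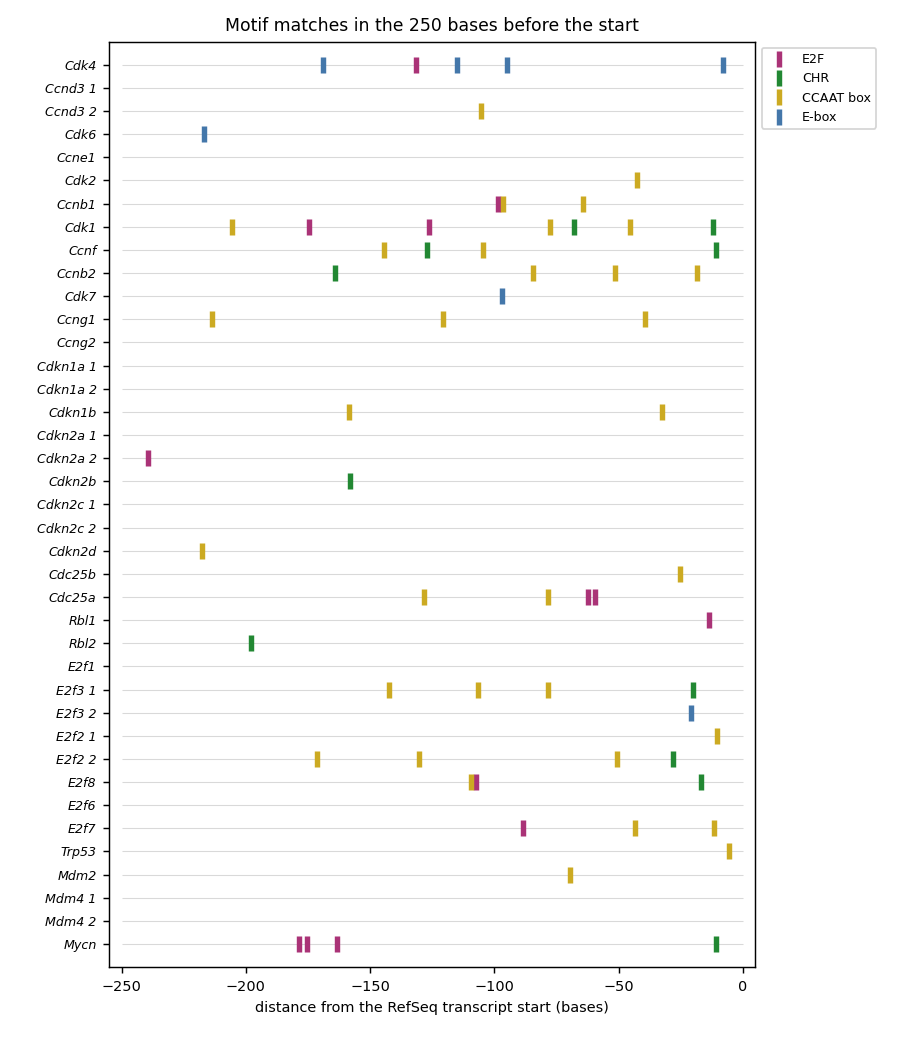
Positions of motif matches in the 39 promoter windows (rows, by gene, with a number where a gene has more than 1 window) against the distance from the RefSeq transcript start in bases. Each coloured tick is 1 match on either strand, and *Cdk4* carries 4 E-box ticks while *Cdk1* carries E2F, CCAAT box and CHR ticks.

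The deposited libraries held 20253781 to 20335463 estimated counts each. Pairs of libraries differed by a chi-square per degree of freedom of 1.70 to 2.33 within vehicle and of 4.13 to 9.64 within Shh, and none was a copy. Shh replicate 2 stood 9.73 to 12.2 from the vehicle libraries on that scale and Shh replicate 1 stood 2.17 to 2.67. Among the 42 cell cycle genes tested, Shh replicate 2 was the lowest or the highest of the 6 libraries for 25 genes, against 8 to 15 genes for each other library. Of 10 hepatocyte markers, 8 were over 1 FPKM in these cells, *Alb* and *Afp* among them, while *Ttr* and *Ahsg* were not, and 7 of 8 cholangiocyte markers and 4 of 8 stellate cell markers were over 1 FPKM as well. The summed FPKM of the hepatocyte list was 1113 to 1133 with vehicle and 1083 to 1130 with Shh, that of the cholangiocyte list 488 to 511 and 484 to 516, of the stellate list 497 to 523 and 500 to 551, and of the macrophage list 35.3 to 36.0 and 31.4 to 38.3 (3 of 7 markers over 1 FPKM). The endothelial list summed to 0.90 to 1.33 and 0.93 to 1.55, with 0 of 8 markers over 1 FPKM. The stellate sum was nearly all *Dcn* (489.7 to 547 FPKM), and the defining markers *Col1a1* and *Ptprc* were at most 3.69 and 0.28 FPKM, both highest in Shh replicate 1. Of the 8 macrophage markers listed, 7 were in the deposited table. No marker found in the table was at 0 in every library, and the part of other cell types in the results was not tested.

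Levels were compared between genes on the deposited FPKM, which are scaled per transcript length and library total. The strongest of these genes act in G1 or belong to the p53 circuit. Over the 6 libraries 7 of the 44 genes lay over 100 FPKM, 22 between 10 and 100, 12 between 1 and 10, and 3 under 1. *Cdk4* led at 502 ± 11.8 FPKM (mean ± SD, n = 6 libraries), which ranked 175 of the 18169 genes, followed by *Ccnd1* (cyclin D1) at 254 ± 9.12, *Cdkn1a* at 199.8 ± 6.64, *Trp53* at 195 ± 5.84, *Ccng1* (cyclin G1, a p53 target) at 161.5 ± 11.6, *Mdm2* at 116 ± 5.58 and *Myc* at 103.5 ± 4.15. The p53 gene and its targets *Cdkn1a*, *Ccng1* and *Mdm2* were thus 4 of the 7 strongest. At the other end stood *Mycn* at 0.89 ± 0.057, *Cdkn1c* (p57) at 0.055 ± 0.033 and *Ccnd2* (cyclin D2) at 0.028 ± 0.012.

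Within families, 1 member often dominated. *Cdk4* lay far above its partner kinase *Cdk6* at 5.75 ± 0.53 FPKM, and among the D cyclins *Ccnd1* was 2.71 times *Ccnd3* (94.0 ± 3.24). *Ccng1* exceeded *Ccng2* 28.6 times, *Cdkn1a* exceeded *Cdkn1b* (p27) 10.4 times, *Mdm2* exceeded *Mdm4* 17.1 times and *Myc* exceeded *Mycn* 116 times. Among the repressive E2F genes *E2f4*, a partner of p107 and p130, lay at 81.7 ± 3.21 FPKM, 4.99 times *E2f8*. Among the activating ones *E2f1* lay at 26.3 ± 1.05, 3.20 times *E2f3*. Of the pocket protein genes *Rbl1* (p107) stood at 9.75 ± 0.51, *Rbl2* (p130) at 5.03 ± 0.32 and *Rb1* at 2.50 ± 0.15. Of the mitotic genes *Ccnb1* stood at 80.3 ± 1.34, *Cdk1* at 63.3 ± 2.16, *Ccnf* at 31.7 ± 1.07 and *Ccnb2* at 30.3 ± 1.32, and the S phase cyclin gene *Ccna2* at 66.2 ± 3.10. The families without a dominant member were the INK4 inhibitors, from *Cdkn2a* at 34.0 FPKM over *Cdkn2b* (32.1) and *Cdkn2c* (21.3) to *Cdkn2d* (13.8), and the CDC25 genes, from *Cdc25b* at 27.1 over *Cdc25a* (23.0) to *Cdc25c* (12.8), with *Wee1* at 9.84. The remaining means were 33.9 FPKM for *Ccne1*, 31.1 for *Cdk2*, 14.0 for *Ccne2*, 20.9 for *Ccnh*, 7.03 for *Cdk7*, 13.8 for *E2f5*, 7.48 for *E2f6*, 4.32 for *E2f7* and 4.04 for *E2f2*. In the order of levels inside each family, the 6 library ranges of neighbours were separate except for *Ccne1* and *Cdk2*, for *Ccnf* and *Ccnb2*, and for *Cdkn2a* and *Cdkn2b*.

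**Figure D2:**
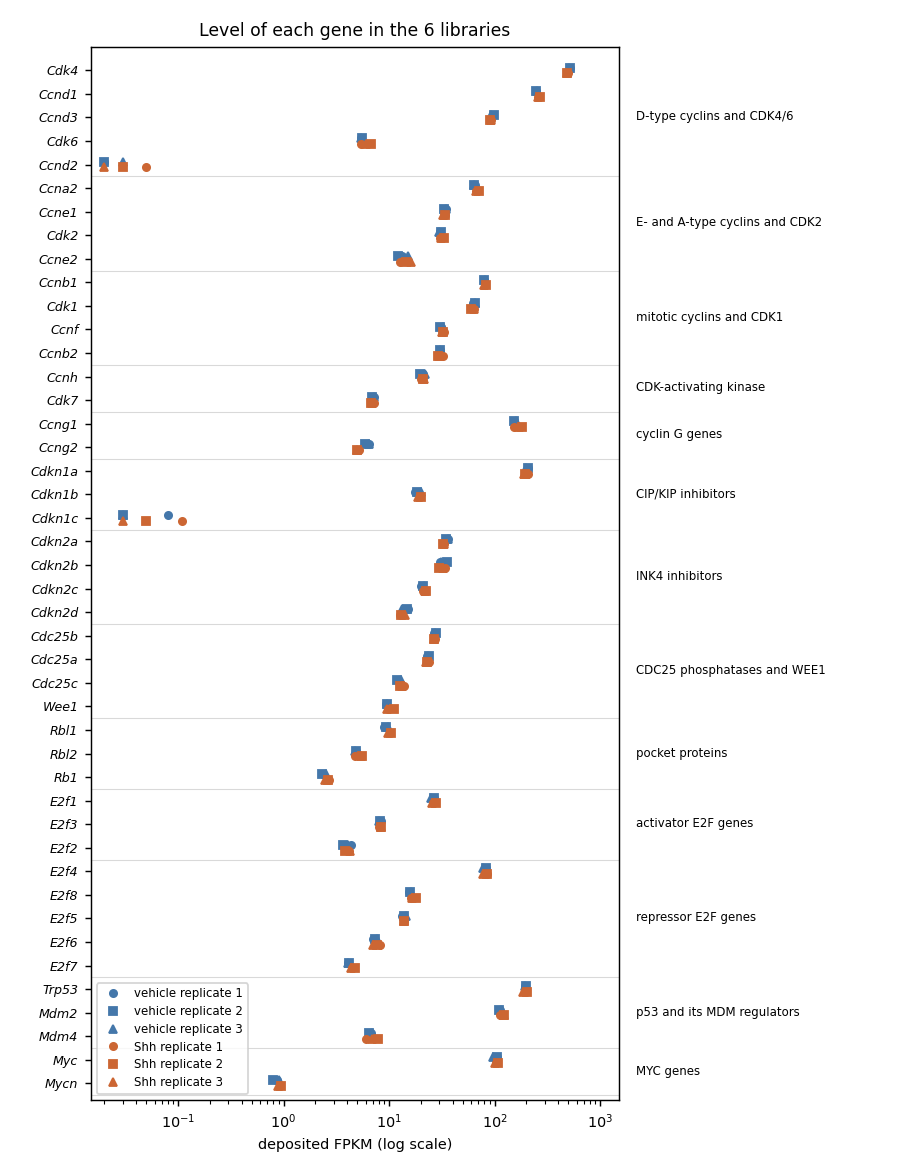
Deposited FPKM (log scale) of each of the 44 genes in each of the 6 libraries, ordered by family and by mean level. Blue marks are vehicle and orange marks Shh, with a shape for each replicate number, and the groups lie on top of each other over a range from 0.02 FPKM (*Ccnd2*) to 514 FPKM (*Cdk4*).

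No gene of this network passed the test between Shh and vehicle, and most differed by a few percent. Counts were expressed as TMM-normalized CPM, a gene's reads relative to the library total, and tested with the quasi-likelihood method of edgeR over 12286 genes, with Benjamini-Hochberg adjustment over all of them. Of the 44 genes, 42 passed the filter on low counts. No gene of the 42 passed an adjusted p of 0.05, the smallest value being 0.469 in edgeR, and 0% of all genes tested did. DESeq2 gave 0 calls as well. At an unadjusted p under 0.05 in edgeR 1 gene was higher with Shh (*Rbl1*) and 2 were lower (*Ccng2* and *Cdkn2a*), against 4.83% of all genes higher and 5.56% lower. In DESeq2 2 were lower at that p (*Cdk4* and *Ccng2*) and 0 higher, so 4.76% of the 42 genes against 6.63% of all genes in that tool. The log2 fold changes of Shh over vehicle ran from -0.34 to 0.13, with 21 above 0 and 21 below 0 and a median of 0.005, beside 0.0028 over all genes tested. In 5 of the 42 genes every Shh library lay above every vehicle library (*Ccnd1*, *Ccna2*, *Rbl1*, *E2f7* and *E2f8*) and in 3 every Shh library lay below (*Cdk4*, *Ccng2* and *Cdkn2a*), against 6.79% and 8.67% of all genes tested. The members' share without overlap, 19.0%, was close to the 15.5% of all genes. In these bulk libraries a lower level per cell cannot be told apart from fewer cells that express the gene, for example fewer cells in a given phase. Without Shh replicate 1 *Ccng2* passed the adjusted threshold and 8 of the 42 genes (19.0%), rather than 3, were at an unadjusted p under 0.05 in edgeR, where 21.1% of all genes tested in that fit were. On leaving out 1 library in turn, the log2 fold change of 32 of the 42 genes moved by over 1.5 times in at least 1 fit, and that of 14 genes changed sign.

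Transcript length moved with the fold change, among these genes as among all. The length behind each gene's counts was recovered from the counts and the FPKM, and across the 42 genes Spearman's rho between length and log2 fold change was 0.53, beside 0.535 across 11471 genes, where all points share the same 6 libraries. Of the 14 cell cycle genes of up to 2009 bases 2 lay above 0 (median log2 fold change -0.043), of the 17 up to 3524 bases 11 did (median 0.037), and of the 11 longer ones 8 did (median 0.055). The medians of all genes in the same length classes were -0.067, 0.0016 and 0.057. A fit with an offset for length per library moved the log2 fold change of 29 of the 42 genes by over 1.5 times or across 0, and its value is given below for the genes that turn on it. Among the other genes it moved, *Trp53* went from -0.037 to -0.0019, *Ccne1* from -0.05 to -0.024, *Ccnh* from -0.054 to -0.015, *Cdkn1a* from -0.079 to -0.052 and *E2f8* from 0.06 to 0.032, while *E2f3* went from -0.023 to -0.078 and *Cdkn2c* from 0.031 to 0.064. With that offset 34 of the 42 genes kept the sign of their log2 fold change, and *Ccnb1*, *Ccnb2*, *Cdkn2b*, *E2f2*, *E2f4*, *E2f5*, *Mdm4* and *Myc* did not.

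**Figure D3:**
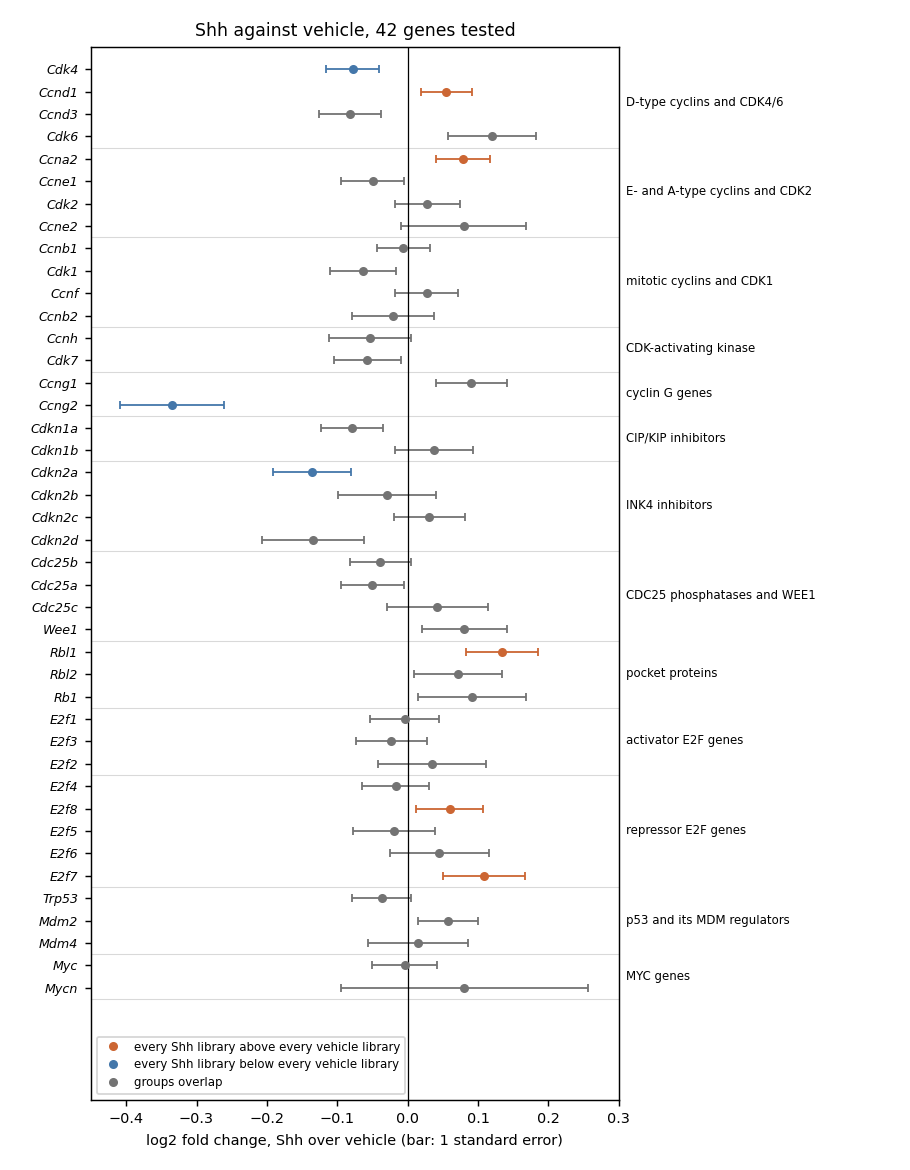
Log2 fold change of Shh over vehicle for the 42 genes tested, by family, with a bar of 1 standard error from edgeR. Orange points (5 genes) mark genes with every Shh library above every vehicle library, blue points (3 genes) the reverse, and *Ccng2* at -0.34 lies outside the range of the others.

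**Figure D4:**
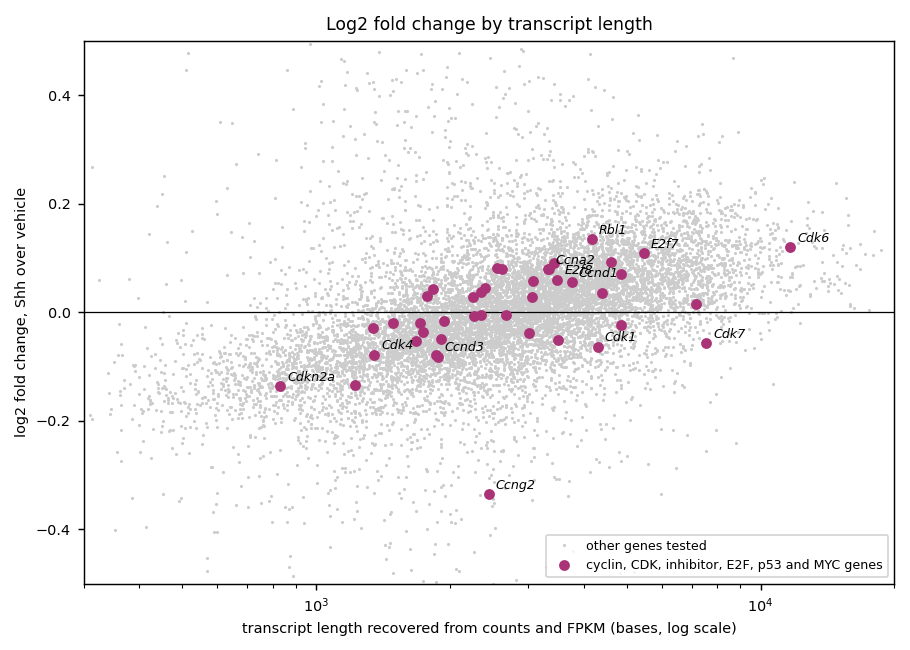
Log2 fold change of Shh over vehicle against transcript length in bases (log scale) for 11471 genes tested (grey, of which 150 lie outside the axes) and the 42 cell cycle genes (purple). Both sets rise from left to right, with *Cdkn2a* and *Cdk4* among the short genes, *Cdk6* the longest, and *Ccng2* below the rest at its length.

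The D-type cyclins and their kinases receive growth signals in G1. *Ccnd1* stood at 933.8, 937.5 and 943.0 CPM in vehicle replicates 1 to 3 and at 967.2, 988.9 and 967.6 in Shh replicates 1 to 3. The Shh libraries were all higher, by a gap of 24.2 CPM between the nearest libraries of the groups, and the fitted group levels differed by 3.89% (log2 fold change 0.055, standard error, SE, 0.037, edgeR adjusted p = 0.590). With the length offset it was 0.021. *Ccnd3* (cyclin D3) lay at 185.5, 186.4 and 172.3 CPM with vehicle and 174.2, 165.8 and 174.0 with Shh. Its groups overlapped through vehicle replicate 3, and its log2 fold change was -0.082 (SE 0.044, edgeR adjusted p = 0.517). As shares of the summed FPKM of the D cyclins, *Ccnd1* and *Ccnd3* did not overlap between the groups, while *Ccnd2* did. *Ccnd1* made up 71.6%, 71.4% and 73.0% with vehicle and 73.5%, 74.9% and 73.5% with Shh. The share of *Ccnd3* was 28.0% ± 0.88 with vehicle and 26.0% ± 0.76 with Shh (SD, n = 3 per group), since *Ccnd2* held at most 0.0144% in any library. For the 30 shares of this kind that were compared, 3 libraries against 3 cannot give an exact two-sided permutation p under 0.1, and both of these had p = 0.1 (adjusted 0.667).

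*Ccnd2* did not pass the filter, with 0.0998, 0.0996 and 0.198 CPM with vehicle and 0.297, 0.145 and 0.0981 with Shh, a handful of reads in each library. *Cdk4* lay at 702.8, 701.2 and 690.1 CPM with vehicle and at 676.7, 648.9 and 658.2 with Shh. The highest Shh library was 13.4 CPM below the lowest vehicle library, and the fitted change between the groups was -5.27% (log2 fold change -0.078, SE 0.038, edgeR adjusted p = 0.487). The transcript of *Cdk4* is short (1354 bases), and with the length offset its log2 fold change was -0.019. *Cdk6* stood at 63.97, 64.56 and 63.86 CPM with vehicle and 62.91, 76.42 and 69.68 with Shh. Shh replicates 2 and 3 lay above all vehicle libraries and Shh replicate 1 below them (log2 fold change 0.12, SE 0.063, edgeR adjusted p = 0.505). *Cdk6* has the longest transcript here, 11642 bases, and its value was 0.025 with the length offset and 0.048 without Shh replicate 2.

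Cyclins E and A with CDK2 carry cells into and through S phase. *Ccna2* (cyclin A2), a classical E2F target, lay at 218.8, 212.1 and 211.9 CPM with vehicle and at 224.9, 231.6 and 222.3 with Shh. The groups were 3.50 CPM apart, with a log2 fold change of 0.079 (SE 0.039, edgeR adjusted p = 0.491). *Ccne1* (cyclin E1) lay at 66.42, 64.31 and 66.43 CPM with vehicle and 65.44, 63.36 and 61.68 with Shh. These overlapped, with a log2 fold change of -0.05 (SE 0.045, edgeR adjusted p = 0.697). *Ccne2* (0.08) and *Cdk2* (0.028) likewise overlapped. *Ccne2* was at -0.014 without Shh replicate 3 and at 0.17 without vehicle replicate 3, and *Cdk2* at 0.0029 without Shh replicate 2.

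The mitotic cyclins with CDK1 drive entry into mitosis, and the CDK-activating kinase of cyclin H and CDK7 phosphorylates the other CDKs. *Ccnb1* (cyclin B1) was steady at 180.3, 182.1 and 185.1 CPM with vehicle and 184.1, 181.7 and 179.2 with Shh (log2 fold change -0.0066, SE 0.038, edgeR adjusted p = 0.962). *Cdk1*, *Ccnb2* and *Ccnf* had log2 fold changes of -0.064, -0.021 and 0.027, and none of the 4 mitotic genes separated the groups. Without Shh replicate 2 *Cdk1* was at -0.017 and *Ccnb2* at 0.024, and without Shh replicate 1 *Ccnb2* was at -0.088. *Ccnh* lay at 35.58, 34.47 and 37.29 CPM with vehicle and 32.62, 34.35 and 36.46 with Shh, at -0.054, and *Cdk7* lay at -0.057. The last kinase is long for a gene on the lower side (7551 bases). With the length offset, *Cdk1* came to -0.11 and *Cdk7* to -0.14, and these 2 genes and *Ccng2* were then the members at an unadjusted p under 0.05 (7.14% of the 42, against 6.08% of all genes in that fit), though none passed adjustment (adjusted p = 0.570 for *Ccng2* and 0.810 for both others, edgeR with length offset).

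**Figure D5:**
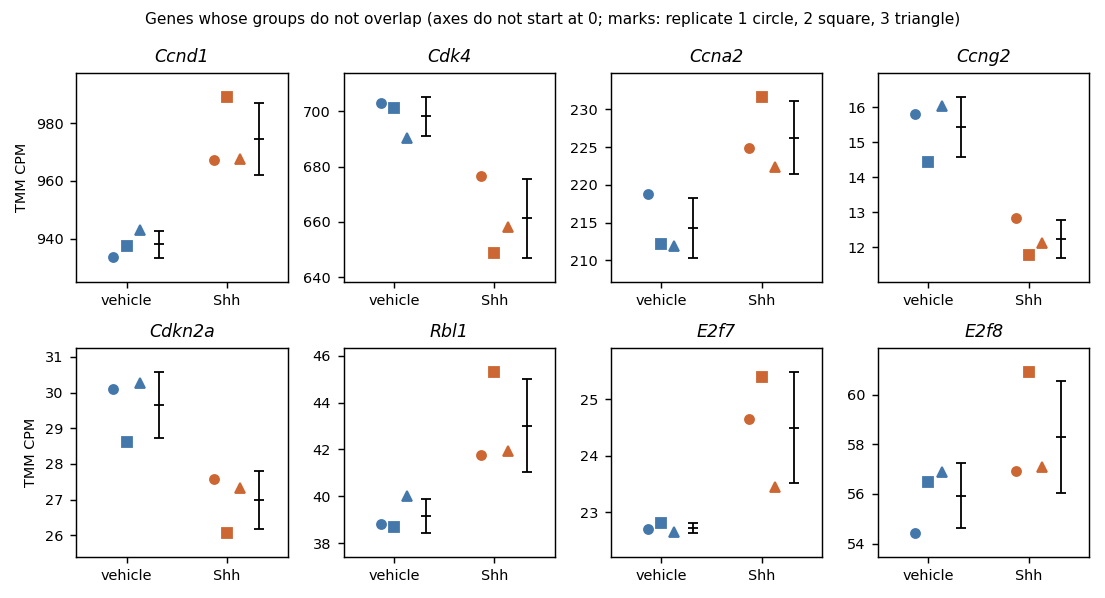
TMM-normalized CPM by library for the 8 genes whose groups do not overlap, with the group mean and SD (n = 3) as a black bar. The axes do not start at 0, and the gap is widest relative to the level in *Ccng2* and only 0.04 CPM in *E2f8*.

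Cyclin G2, unlike the cyclins above, is linked to cell cycle arrest and is a known target of FOXO factors, and *Ccng2* had the largest change of the 42 genes. It stood at 15.82, 14.45 and 16.03 CPM with vehicle (mean 15.4 ± 0.86) and at 12.82, 11.76 and 12.12 with Shh (12.2 ± 0.54, SD, n = 3). All Shh libraries were below all vehicle libraries by at least 1.63 CPM. The log2 fold change was -0.34 (standard error 0.074), or 0.793 times the vehicle level, with an unadjusted p of 0.000651 in the edgeR fit over all genes and an adjusted p of 0.469. Without Shh replicate 1 its adjusted p was 0.0486 (log2 fold change -0.37, edgeR), in a fit that called 195 genes. The length offset left the size in place, at -0.33. *Ccng1* lay at 536.0, 524.3 and 553.3 CPM with vehicle and 528.8, 603.1 and 586.3 with Shh. Shh replicate 1 lay among the vehicle libraries, and its log2 fold change was 0.091 (SE 0.05, edgeR adjusted p = 0.526). It was 0.14 without Shh replicate 1 and 0.052 without Shh replicate 2. The share of *Ccng2* in the summed FPKM of both genes was 3.99%, 3.73% and 3.92% with vehicle and 3.30%, 2.67% and 2.82% with Shh, again at the smallest exact permutation p of 0.1.

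Among the 6 inhibitor genes tested 4 had log2 fold changes below 0 and 2 above. *Cdkn1a*, which encodes p21, lay at 388.5, 385.9 and 375.4 CPM with vehicle and 383.7, 351.6 and 353.2 with Shh. Shh replicate 1 lay between the vehicle libraries and Shh replicates 2 and 3 below them (log2 fold change -0.079, SE 0.044, edgeR adjusted p = 0.525). *Cdkn1b* overlapped at 0.037, and *Cdkn1c*, which did not pass the filter, had 0.150, 0.0498 and 0.0495 CPM with vehicle and 0.198, 0.0964 and 0.0491 with Shh.

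*Cdkn2a*, whose locus encodes both the CDK inhibitor p16 and the MDM2 antagonist p19ARF from different first exons, was counted as 1 gene. It stood at 30.09, 28.60 and 30.27 CPM with vehicle and at 27.57, 26.07 and 27.33 with Shh. The groups were 1.03 CPM apart, and the log2 fold change was -0.14 (SE 0.056, edgeR adjusted p = 0.469). It is the shortest of the 42 genes (832 bases), and with the length offset its value was -0.039. *Cdkn2d* (p19INK4d) lay at 18.51, 18.18 and 16.42 CPM with vehicle and 15.74, 15.51 and 17.12 with Shh. Its log2 fold change of -0.13 (SE 0.072, edgeR adjusted p = 0.514) came with overlap, since Shh replicate 3 exceeded vehicle replicate 3, and it became -0.066 with the length offset. *Cdkn2b* (-0.029) and *Cdkn2c* (0.031) overlapped too.

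The CDC25 phosphatases remove the inhibitory phosphates that WEE1 places on CDKs. The highest of them, *Cdc25b*, lay at 81.19, 83.69 and 82.75 CPM with vehicle and 82.46, 78.87 and 79.74 with Shh (log2 fold change -0.039, edgeR adjusted p = 0.758). The groups of *Cdc25a* (-0.05), *Cdc25c* (0.042) and *Wee1* (0.08) overlapped as well, so that 0 of 4 genes of this step separated the libraries.

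All 3 pocket protein genes had log2 fold changes above 0. *Rbl1*, whose protein p107 is itself made under E2F control, lay at 38.82, 38.71 and 40.02 CPM with vehicle and 41.78, 45.29 and 41.95 with Shh. The lowest Shh library exceeded the highest vehicle library by 1.76 CPM, and the fitted change between the groups was 9.78% (log2 fold change 0.13, SE 0.051, edgeR adjusted p = 0.469). Before adjustment over all genes the edgeR fit gave it an unadjusted p of 0.0217. With the length offset it was 0.091. *Rb1* (0.092) and *Rbl2* (0.071) overlapped, and with the offset they were at 0.041 and 0.016. In the family's mix *Rbl1* held a mean of 56.4% ± 0.78 of the summed FPKM with vehicle and 56.5% ± 1.25 with Shh (SD, n = 3, exact permutation p = 1).

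None of the 3 activating E2F genes separated the groups. *E2f1* lay at 72.91, 71.84 and 67.42 CPM with vehicle and 69.79, 73.33 and 68.35 with Shh (log2 fold change -0.0045, SE 0.049, edgeR adjusted p = 0.981), and *E2f2* and *E2f3* were at 0.035 and -0.023. *E2f7* and *E2f8* encode atypical E2Fs, which bind DNA without a DP partner and dampen E2F targets late in S phase. *E2f7* stood at 22.71, 22.82 and 22.65 CPM with vehicle and at 24.65, 25.39 and 23.45 with Shh. The vehicle libraries lay close together and all Shh libraries were higher, by at least 0.63 CPM, with a log2 fold change of 0.11 (SE 0.058, edgeR adjusted p = 0.512) that was 0.046 with the length offset. *E2f8* stood at 54.44, 56.49 and 56.88 CPM with vehicle and at 56.92, 60.90 and 57.07 with Shh. Here the groups missed each other by only 0.04 CPM (log2 fold change 0.06, SE 0.048, edgeR adjusted p = 0.658), and without Shh replicate 2 the value was 0.027. As a share of the 5 repressive E2F genes *E2f7* was 3.34%, 3.34% and 3.40% with vehicle and 3.55%, 3.69% and 3.64% with Shh, also at an exact permutation p of 0.1. *E2f4*, the bulk of that group, lay at 163.6, 162.7 and 153.0 CPM with vehicle and 163.5, 161.1 and 149.0 with Shh, and replicate 3 was the lowest in both groups. Its log2 fold change was -0.017, with *E2f5* at -0.02 and *E2f6* at 0.045.

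*Trp53*, the p53 gene, lay at 345.6, 348.1 and 341.1 CPM with vehicle and at 346.0, 342.7 and 319.8 with Shh. Shh replicate 3 lay below the other 5 libraries, which were close together, and the log2 fold change was -0.037 (SE 0.041, edgeR adjusted p = 0.762). *Mdm2* and *Mdm4* had values of 0.058 and 0.014, both with overlap. *Myc* lay at 249.5, 251.7 and 229.7 CPM with vehicle and 245.3, 249.2 and 234.2 with Shh (log2 fold change -0.0044, edgeR adjusted p = 0.980). *Mycn* lay at 2.25, 2.04 and 2.33 CPM with vehicle and 2.38, 2.36 and 2.26 with Shh, at a log2 fold change of 0.081 with an SE of 0.18 (edgeR adjusted p = 0.894).

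The genes around this network were counted in the same way. None of 7 further lists held a gene past an adjusted p of 0.05 in edgeR. Their unadjusted counts are given against the 4.83% higher and 5.56% lower of all genes. Counts above 0 compare with 6285 of the 12286 genes tested. Genes named from each list were mostly picked for the smallest p, a choice that favours separation of the groups. Of 24 tested E2F target genes of S phase 16 lay above 0 (median log2 fold change 0.016), with 2 higher and 0 lower at an unadjusted p under 0.05. The DNA methyltransferase gene *Dnmt1* stood at 158.7 ± 3.78 CPM with vehicle and 169.7 ± 1.78 with Shh (SD, n = 3), without overlap, at a log2 fold change of 0.097, the helicase gene *Hells* was at 0.15 with overlap, and *Pcna*, the replication clamp, was lower without overlap at -0.081. Of 35 mitosis genes 22 lay above 0 (median 0.03), with 3 higher and 1 lower. *Aspm* and *Ttk*, for a spindle pole protein and a spindle checkpoint kinase, were at 0.19 and 0.20, each with overlap, while *Cenpa*, the centromeric histone gene with a short transcript of 927 bases, was lower without overlap at -0.15.

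Of 29 tested p53 targets out of 30 listed, 21 lay above 0 (median 0.056), with 1 higher and 0 lower at that p. Relative to the vehicle mean, the list's median log2 level was 0.028, 0.023 and 0.10 in Shh replicates 1 to 3. In vehicle replicates 1 to 3 it was -0.0043, -0.004 and 0.015, so Shh replicate 3 stood apart. The genes with the smallest p were *Polk*, a DNA polymerase for damaged templates, at 0.14, *Rps27l* at -0.17 and the cell death gene *Bax* at -0.11, of which only *Bax* separated the groups. The transcripts of *Rps27l* and *Bax* were 464 and 820 bases long, that of *Polk* 4184. Of 16 DP, MuvB and MYC partner genes 6 lay above 0 (median -0.013), with 2 higher and 2 lower. The MuvB subunit gene *Lin54* was at 0.23, the DP gene *Tfdp2* at 0.20 and the MAX partner gene *Mxi1* at -0.13. Each of these separated the groups, but they were picked for the smallest p of the list. In the whole list 25% of the genes did not overlap, against 15.5% of all genes tested.

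Of 24 other cyclins and CDKs 17 lay above 0 (median 0.04), with 4 higher and 0 lower. Their smallest p values belonged to *Cdk12* (0.15, without overlap), *Cdk13* (0.18) and *Cdk19* (0.14), the kinases that act on transcription rather than on the cycle, whose transcripts are 5262 to 7216 bases long. Of 25 checkpoint kinases and ubiquitin ligases 14 lay above 0 (median 0.02), with 2 higher and 1 lower. *Anapc1* and *Cdc27*, subunit genes of the anaphase-promoting complex, were at 0.12 and 0.17, and the checkpoint kinase gene *Chek2* at -0.15, with no overlap in *Anapc1* and *Chek2*. All genes named from these lists had adjusted p values between 0.469 and 0.504 in edgeR.

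The Hedgehog response itself was followed through its standard readouts. *Gli1* lay at 2.50, 2.14 and 2.37 CPM with vehicle and at 2.33, 2.70 and 2.16 with Shh, from 43 to 56 reads per library, and its log2 fold change of 0.036 had an SE of 0.18 (edgeR adjusted p = 0.955). *Ptch1*, the receptor that the pathway induces, lay at 35.58, 31.38 and 36.35 CPM with vehicle and 33.76, 36.91 and 34.84 with Shh (0.03, SE 0.065, edgeR adjusted p = 0.891). Of the 8 genes of that list 4 passed the filter, all 4 had overlapping groups, and their median log2 fold change was 0.033, with *Sufu* and *Smo*, for pathway transducers, at 0.062 and 0.02.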

How the data were processed

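Poly(A) RNA of vehicle-treated and Shh-treated Hepa 1-6 cells (3 libraries each) was sequenced by the authors. For each gene the authors deposited estimated counts and FPKM, the latter scaled per length and library size. Among count values above 0, 36.4% were not whole (by more than 0.001). The submitters' notes name Bowtie2. Counting tool, build and annotation: not given in the sources used here. Estimated counts of 12 of the 44 genes were not whole in some library (in every library for *Ccnd1*, *Ccnd3*, *Cdk6*, *Ccne2*, *Ccna2*, *Cdk7*, *Rbl2*, *E2f1* and *Mdm2*), so reads shared with other transcripts may have been split for these. The columns headed control were read as vehicle. Another 6 per-sample columns, in TPM, and 6 averages were not used. Liver exosomes are named in the design text, but the labels name the cell line, which was followed.

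Counts were rounded and tested in R 4.3.3 with edgeR 4.0.16 (TMM, filter with a minimum count of 10 and total of 15, quasi-likelihood F-test on group alone) over all genes, with Benjamini-Hochberg adjustment at 0.05. Each library held at least 20253781 counts, so counting error weighs mainly on the lowest genes. FPKM served for levels and for shares within families, which were compared by an exact two-sided permutation test over libraries. Length was taken from counts and FPKM where FPKM was at least 0.5. The test was also run on simulated counts, with changes larger than those of most members and no trend by length. That run cannot tell how the test performs on changes of a few percent. Members and lists were chosen with earlier results of these data known. Genes were named by rule, namely members without overlap, the 10 with the smallest p, the highest in each family, *Ccnd1*, *Ccnd2*, *Mycn*, *Ccne1*, *Cdkn1a*, those not passing the filter, the 3 genes with the smallest p of each further list, and *Gli1* and *Ptch1*. Promoter windows were cut to the bases before the start. Other settings were DESeq2 1.42.0, factors from the upper quartile, no filter, at least 5 CPM in 3 libraries, the replicate number as a block, a length offset (5 degrees of freedom), both, and leaving out each library.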

Additional observations from a re-analysis of the deposited data

How the results depend on the processing

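Of the 13 alternatives, the count of members past the adjusted threshold was 0 in all but 1, the fit without Shh replicate 1, where *Ccng2* passed. Over the fits that left out 1 library it ran from 0 to 1, and the count of all genes called ran from 0 to 195, with 195 on leaving out Shh replicate 1, 3 on leaving out Shh replicate 2, 1 for Shh replicate 3 and 2 for vehicle replicate 3. The count of all genes called was 1 without a filter, 1 with the length offset and 5 with the replicate block and the length offset together. Members at an unadjusted p under 0.05 ranged from 1 (without vehicle replicate 1) to 8 (without Shh replicate 1), with 5 without Shh replicate 3, against 3 in the fit reported. The shares of all genes at that p in those fits were 4.89%, 21.1% and 9.33%, beside 2.38%, 19.0% and 11.9% of the members. The median log2 fold change of the members was 0.0187 without a filter, where *Ccnd2* (0.42) and *Cdkn1c* (0.43) entered with few reads. Over the fits that left out 1 library it ran from -0.0088 without Shh replicate 1 to 0.0149 without Shh replicate 3. The causes were not tested. The log2 fold change of the 14 members named for separation, p or a link to Hedgehog or p53 kept its sign in every alternative. Most of them were chosen by separation or p in these same data, so the choice largely fixed that outcome. Of all 42 members tested, 14 changed sign in a fit without 1 library and 8 with the length offset. *Ccng2* stayed between -0.38 and -0.31, with an adjusted p of 0.0486 to 0.847. Deviations of same-numbered libraries from their group means correlated at -0.04, -0.054 and 0.098. A fit with the replicate block called 0 genes, as the fit without it did. With 3 libraries per group these values cannot decide whether the replicate numbers pair the libraries. Changes of the size seen in most members, a few percent, lie near the spread between libraries (median SD over members 0.0414 log2 CPM with vehicle and 0.06 with Shh).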

Other observations

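The Shh libraries varied more than the vehicle libraries in 29 of the 42 cell cycle genes tested, by the SD of log2 CPM. Shh replicate 2 was the lowest of the 6 libraries for 12 genes and the highest for 13, and Shh replicate 3 was the highest for 2. Leaving out Shh replicate 1 put *Cdk4*, *Cdk6*, *Ccng1*, *Ccng2*, *Cdkn1a*, *Cdkn2a*, *Rbl1* and *Mdm2* under an unadjusted p of 0.05 in edgeR (19.0% of the members, against 21.1% of all genes), and leaving out Shh replicate 2 left *Cdk4* and *Ccng2* there (4.76%, against 6.20% of all genes). *Ccng2* was the 1 member at that p in every fit run.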
